A study of Homo sapiens with 12 samples.

Results

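The G1 checkpoint genes examined here are 10 of the 58302 gene identifiers in the count table, chosen by name as the inhibitors of the cyclin-dependent kinases of the INK4 family (*CDKN2A*, *CDKN2B*, *CDKN2C*) and of the CIP/KIP family (*CDKN1A*, *CDKN1B*, *CDKN1C*), the D cyclins *CCND1* and *CCND2*, the kinase *CDK6* and the retinoblastoma gene *RB1*. They were measured by RNA sequencing in NCI-H520, an established human lung squamous cell carcinoma (LUSC) line that stably carried, from a lentivirus, the chimeric L1-FGGY transcript (OV-L1-FGGY) or, in OV-CTRL, a vector without it. The 12 libraries form 4 groups of 3 by their labels, namely OV-L1-FGGY given 0.2% DMSO as vehicle, 10 μM ML355 (an inhibitor of 12-LOX) or 450 μM NVR (an inhibitor of reverse transcriptase), and a DMSO control taken to be OV-CTRL. All were given their agent in fresh medium 5 h after seeding, the length of treatment is not given, and no source says whether the stable cells were a pool or came from a clone. The labels do not say whether the libraries of a group came from separate cultures, so that the p-values measure the spread between these libraries, which may be technical.

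Passage through G1 is set by the balance of these genes. Mitogens raise the D cyclins, which bind CDK4 or CDK6 and phosphorylate RB, and RB then releases the E2F factors that switch on the genes of DNA synthesis. INK4 proteins bind CDK4 and CDK6 and keep the D cyclins off, whereas the CIP/KIP proteins bind complexes of cyclin and kinase more broadly, those of cyclin E with CDK2 among them. In LUSC tumors *CDKN2A* is among the genes most often lost or silenced.

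Total counts ran from 16242082 to 27004768 per library. Levels are CPM, the counts set to a common library size with TMM scaling, and log2 fold changes are given with their standard error (SE) and the Benjamini-Hochberg adjusted p of edgeR's quasi-likelihood test over 17849 genes, counted as passed under 0.01. Reads assigned to *FGGY*, in which a count per gene cannot tell the chimeric transcript from native *FGGY*, came to 4782 to 7346 counts in the 6 libraries of OV-L1-FGGY given DMSO or ML355, but 82 to 103 in the NVR-labelled libraries and 78 to 91 in DMSO-treated OV-CTRL. The label of the NVR-labelled libraries, which names OV-L1-FGGY, thus goes against these counts, and every direction drawn from them rests on that label. By that label, their comparison with OV-CTRL differs in the cells as well as in the agent, and these cannot be told apart in it. Across genes, their log2 CPM correlated at 0.939 to 0.972 with those of OV-CTRL and at 0.706 to 0.763 with those of the OV-L1-FGGY groups given DMSO or ML355. OV-CTRL correlated at 0.755 to 0.765 with DMSO-treated OV-L1-FGGY and at 0.759 to 0.774 with OV-L1-FGGY given ML355. Libraries within a group were at 0.979 or higher. These are descriptions across genes that are not independent. Of 8 squamous markers, *KRT5*, *KRT6A*, *DSG3* and *PKP1* had at most 3 counts in all 12 libraries. *SOX2* was at 0 counts in the OV-L1-FGGY libraries with DMSO or ML355 and at 128 to 446 in the other libraries, and *KRT17* was at 16304 to 97372 counts in the former and 1 to 6 in the latter. The summed level of 6 fibroblast markers was 341 to 360 CPM in DMSO-treated OV-L1-FGGY, 112 to 122 with ML355, 19.7 to 22.4 in the NVR-labelled libraries and 20.4 to 25.7 in OV-CTRL, led by *LUM* and *DCN*, with *COL1A2* at 3 counts or fewer throughout. The same sums were 8.89 to 9.41, 0.257 to 0.69, 0.384 to 0.701 and 0.422 to 0.626 CPM for 4 endothelial markers, with *KDR* at 3 counts or fewer throughout. For 5 leukocyte markers they were 2.37 to 3.33, 2.51 to 3.81, 0 to 0.165 and 0.0767 to 0.156 CPM, with *CD3E*, *CD68* and *LYZ* at 3 counts or fewer throughout. For 5 lung adenocarcinoma markers they were 0.454 to 0.789, 0.345 to 0.578, 7.63 to 10.6 and 4.58 to 5.47 CPM, with *SFTPB* and *SLC34A2* at 3 counts or fewer throughout. The part of these markers in the results was not tested. In bulk RNA, fewer cells of a type and less RNA per cell cannot be told apart.

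The promoter windows of 3 genes are shown for the letters before their starts. *CDKN2A* and *CDKN2B* were read in the same libraries, and *CDKN1A* was higher with ML355 and in the NVR-labelled libraries than in the DMSO groups. *CDKN2A* has separate starts for p14ARF and for p16INK4a, and since a count per gene adds their reads together, the use of a start was not measured. Each window holds 240 bases, from 250 to 11 bases before a RefSeq start on GRCh38.p14, written 5′ to 3′ on the strand of the gene, with GC boxes (GGGCGG on either strand) in capitals. They are chr9:21995335-21995574 for the p14ARF start, chr9:21974868-21975107 for the p16INK4a start, chr9:22009316-22009555 for *CDKN2B*, all on the minus strand, and chr6:36678464-36678703 on the plus strand for *CDKN1A*.
*CDKN2A*, p14ARF start: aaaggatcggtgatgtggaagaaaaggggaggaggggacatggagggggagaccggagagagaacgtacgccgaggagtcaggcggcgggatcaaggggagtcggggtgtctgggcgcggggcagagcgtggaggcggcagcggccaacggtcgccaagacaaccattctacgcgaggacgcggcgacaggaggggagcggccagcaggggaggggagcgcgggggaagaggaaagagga
*CDKN2A*, p16INK4a start: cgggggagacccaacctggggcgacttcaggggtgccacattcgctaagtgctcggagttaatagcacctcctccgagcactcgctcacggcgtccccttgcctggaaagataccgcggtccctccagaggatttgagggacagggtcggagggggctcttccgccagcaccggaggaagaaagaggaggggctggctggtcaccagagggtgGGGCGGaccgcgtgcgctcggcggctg
*CDKN2B*: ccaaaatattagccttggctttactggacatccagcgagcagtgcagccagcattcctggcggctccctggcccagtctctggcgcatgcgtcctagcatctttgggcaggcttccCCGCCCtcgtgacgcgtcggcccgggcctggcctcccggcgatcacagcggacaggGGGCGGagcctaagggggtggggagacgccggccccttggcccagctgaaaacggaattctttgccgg
*CDKN1A*: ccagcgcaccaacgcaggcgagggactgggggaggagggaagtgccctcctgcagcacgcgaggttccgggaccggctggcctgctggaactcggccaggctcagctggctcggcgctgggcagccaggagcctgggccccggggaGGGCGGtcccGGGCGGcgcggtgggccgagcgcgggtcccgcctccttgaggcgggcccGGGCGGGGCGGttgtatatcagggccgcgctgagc
The GC box was found 4 times at *CDKN1A*, 2 times at *CDKN2B*, 1 time at the p16INK4a start and 0 times at the p14ARF start, and 41.3% of 34943 promoter windows of the same length hold it. CCAAT (31.4% of windows), TATAAA (10.6%) and the E2F spellings TTTCCCGC, TTTGGCGC, TTTCGCGC and TTTGCCGC (2.64% for any of them), sought on both strands, were not in these windows. The last 2 GC boxes at *CDKN1A* overlap. GC content was 67.1% and 66.2% at the *CDKN2A* starts, 65.8% at *CDKN2B* and 76.7% at *CDKN1A*. A match is a description of the letters only. Of the 10 genes, 7 have an entry in the promoter table, with 11 windows.

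*CDKN2A* and *CDKN2B* were read in OV-L1-FGGY given DMSO or ML355 and were at or near 0 in the other 6 libraries. *CDKN2A* (ENSG00000147889, chr9:21967752-21995301, minus strand), which encodes p16INK4a and p14ARF, had 4489, 5594 and 5078 counts in replicates 1 to 3 of DMSO-treated OV-L1-FGGY and 7439, 4836 and 7470 with ML355. It had 1, 0 and 0 counts in DMSO-treated OV-CTRL and 0, 0 and 0 in the NVR-labelled libraries. There was no library in between. *CDKN2B* (ENSG00000147883, chr9:22002903-22009305, minus strand), which encodes p15INK4b, an inhibitor known to respond to TGF-beta, had 910, 1188 and 1078 counts in DMSO-treated OV-L1-FGGY, 525, 752 and 553 with ML355, and 0 in each of the other 6 libraries. Over the 3 libraries of a group, *CDKN2A* had 15161 counts in DMSO-treated OV-L1-FGGY against 1 in OV-CTRL, a ratio of 20300 after scaling (exact 95% interval for counting error only, 3640 to 802000), with an edgeR adjusted p of 2.7e-13. *CDKN2B* was at least 1420-fold higher in DMSO-treated OV-L1-FGGY than in OV-CTRL, computed against a floor of 3 counts over the group (edgeR adjusted p = 2.08e-11). Against DMSO-treated OV-L1-FGGY, the NVR-labelled libraries were at least 5850-fold lower in *CDKN2A* and at least 1230-fold lower in *CDKN2B* (edgeR adjusted p = 2.99e-13 and 2.27e-11). These bounds use the floor, whereas the ratio of 20300 divides by the 1 count of OV-CTRL, so that 20300 and 5850 are not to be compared. No fold is given between the NVR-labelled libraries and OV-CTRL, since both were at or under the floor. Such a contrast was rare but not confined to these genes: 126 of 17849 genes tested (0.706%) had at least 100 counts in every library of DMSO-treated OV-L1-FGGY and at most 3 in every library of OV-CTRL, and 130 (0.728%) met the same limits against the NVR-labelled libraries.

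With ML355 *CDKN2B* fell and *CDKN2A* did not pass the test. *CDKN2B* went from 56.3 ± 5.43 CPM (SD, n = 3) to 31.2 ± 6.7 CPM (SD, n = 3), a log2 fold change of -0.85 (SE 0.16, edgeR adjusted p = 0.000641), and the groups did not overlap. *CDKN2A* was at 269 ± 21.7 CPM (SD, n = 3) with DMSO and 336 ± 76.4 CPM (SD, n = 3) with ML355, a log2 fold change of 0.32 (SE 0.16) that missed the threshold (edgeR adjusted p = 0.0994), and ML355 replicate 2, at 249 CPM, lay below all the DMSO libraries. Without that library the change was 0.50 (edgeR adjusted p = 0.00643), past the threshold. How the authors treated reads that fit both paralogs is not stated, and *CDKN2B* lies wholly within the antisense gene *CDKN2B-AS1*, which never passed 66 counts.

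**Figure D1:**
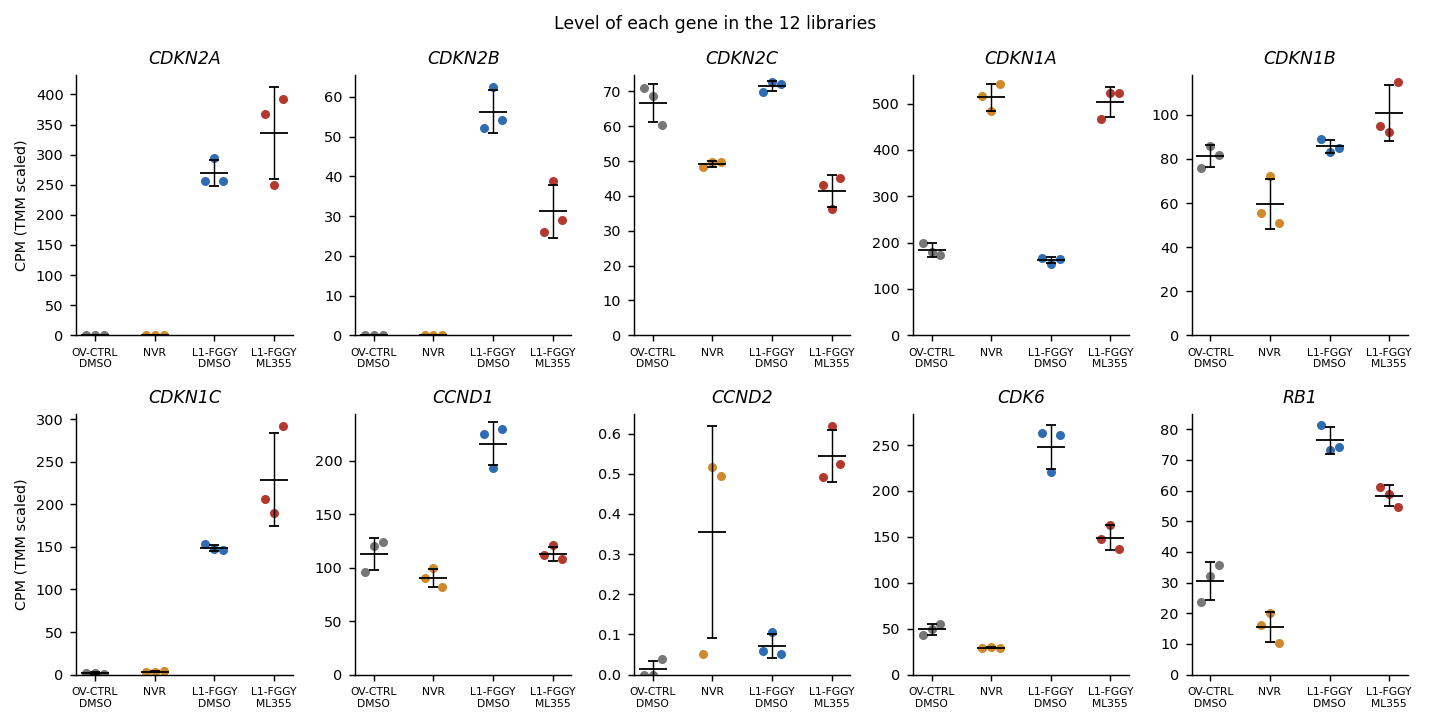
Level of each of the 10 genes (CPM with TMM scaling, linear axes that start at 0 and differ between panels) in the 12 libraries, with 1 point per library, a horizontal line at the mean and bars of 1 SD (n = 3). *CDKN2A* and *CDKN2B* lie at or near 0 in the OV-CTRL libraries and in the NVR-labelled libraries, and *CDKN1A* is at 467 to 542 CPM in both inhibitor groups against 154 to 200 CPM in both DMSO groups.

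The genes around them on chromosome 9 were not uniform. Of 12 neighbours with a symbol and at least 10 counts in some library within 1 Mb of the *CDKN2A* start, *CDKN2B* itself among them, 10 were tested. In DMSO-treated OV-L1-FGGY against OV-CTRL 6 were higher, *CDKN2B* included, and 2 lower, where 32.5% and 36.2% of all genes tested were. Their median log2 fold change was 1.87 beside -0.107 over all genes tested. *MTAP*, an enzyme of methionine salvage whose start lies 192.7 kb from that of *CDKN2A*, had 419, 465 and 517 counts in DMSO-treated OV-L1-FGGY, 318, 339 and 271 with ML355, 7, 5 and 1 in OV-CTRL and 3, 4 and 1 in the NVR-labelled libraries. It was thus low but not at 0 in the libraries where *CDKN2A* and *CDKN2B* were at or near 0, with a log2 fold change of 7.12 (SE 0.29, edgeR adjusted p = 2.25e-12) for OV-L1-FGGY against OV-CTRL. The antisense RNA *CDKN2B-AS1*, which starts 1.2 kb from the *CDKN2A* start, had 66, 52 and 58 counts in DMSO-treated OV-L1-FGGY, 24, 20 and 27 with ML355 and 0 in the other 6 libraries, at least 78.6-fold higher in DMSO-treated OV-L1-FGGY than in OV-CTRL (edgeR adjusted p = 1.13e-07). *CDKN2A-DT*, 28.4 kb away, had 2, 4 and 10 counts in DMSO-treated OV-L1-FGGY, 1, 0 and 2 with ML355 and 0 in the rest. Of the neighbours, *MTAP*, *CDKN2B-AS1*, *CDKN2B*, *IFNB1*, *MIR31HG* and *IFNE* passed the filter on low counts only through libraries where they were high. Their p-values between the cells, the counts of neighbours called and their median are thus not independent of that filter.

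Genes farther out differed in their direction. Those named next were chosen after their values were seen. *KLHL9*, 659.9 kb on the *MTAP* side, had 344 to 427 counts in DMSO-treated OV-L1-FGGY, 596 to 783 in OV-CTRL and 387 to 810 in the NVR-labelled libraries, and its log2 fold change of -0.38 for OV-L1-FGGY against OV-CTRL did not pass the threshold (edgeR adjusted p = 0.0256), which it did in DESeq2 (adjusted p = 0.00974). *DMRTA1*, 451.5 kb on the other side, had 82 to 111 counts in DMSO-treated OV-L1-FGGY and 39 to 41 in OV-CTRL, a log2 fold change of 1.66 (edgeR adjusted p = 8.29e-06). The non-coding *MIR31HG* and the interferon gene *IFNE*, between *KLHL9* and *MTAP*, ran the opposite way, at 0 to 10 and 2 to 4 counts in DMSO-treated OV-L1-FGGY and 82 to 130 and 50 to 56 in OV-CTRL. *IFNB1*, which encodes interferon beta and lies 917.4 kb away, had 12 to 17 counts in DMSO-treated OV-L1-FGGY and 0 in the OV-CTRL libraries and the NVR-labelled libraries. *MTAP*, *CDKN2A-DT*, *CDKN2A*, *CDKN2B-AS1* and *CDKN2B* thus lay in a row at or near 0 in OV-CTRL and in the NVR-labelled libraries. Genes read in those libraries lay on either side. Low counts were not confined to that row, as *IFNB1* was at 0 in those libraries. *IFNA1*, 554.9 kb from the *CDKN2A* start, had 3, 5 and 2 counts in OV-CTRL and 13, 12 and 3 in the NVR-labelled libraries.

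**Figure D2:**
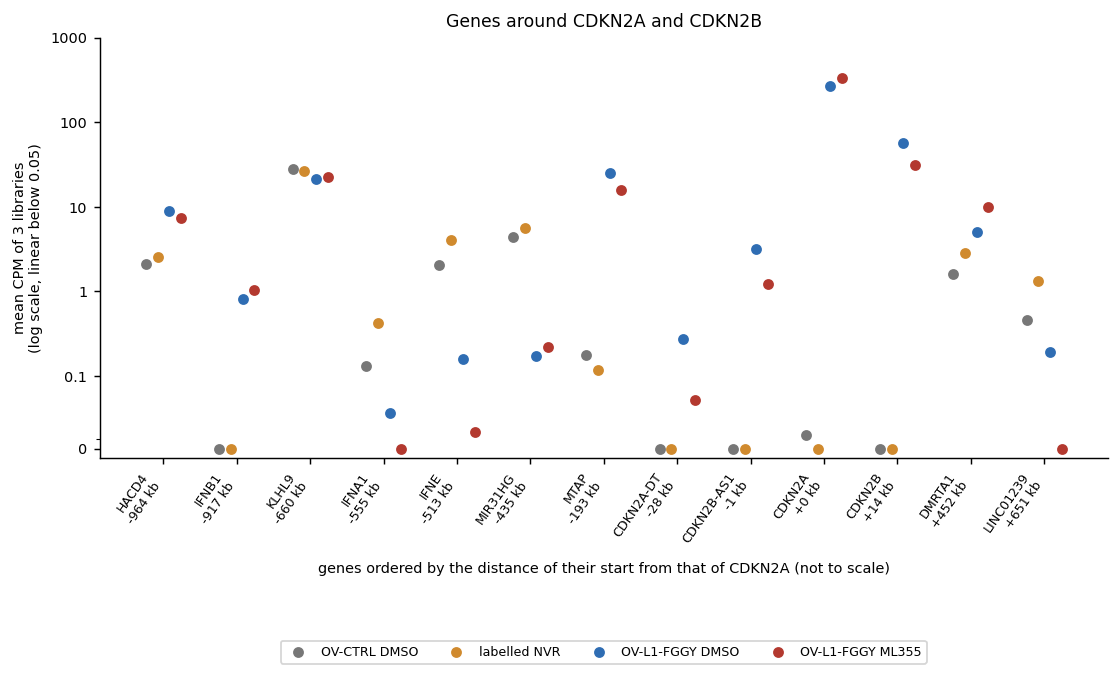
Mean CPM of the 3 libraries of each group (log axis, linear below 0.05) for *CDKN2A* and its 12 neighbours within 1 Mb, ordered by the distance of their start from that of *CDKN2A* and not drawn to scale. From *MTAP* to *CDKN2B* the OV-CTRL libraries and the NVR-labelled libraries lie below 0.2 CPM, while *KLHL9* is at 21.3 to 27.7 CPM in all 4 groups.

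With ML355, *MTAP* fell by 0.65 on the log2 scale (SE 0.18, edgeR adjusted p = 0.00458) and *CDKN2B-AS1* fell by 1.37 (SE 0.33, edgeR adjusted p = 0.00348). The *MTAP* call was lost when any of 5 of the 6 libraries compared was left out (edgeR adjusted p = 0.013 to 0.0216). *DMRTA1* rose by 0.97 (SE 0.21, edgeR adjusted p = 0.00106). Of the 10 neighbours tested, 1 rose and 4 fell, *CDKN2B* included, where 21.3% of all genes rose and 23.5% fell.

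The third INK4 gene did not follow them. *CDKN2C* (ENSG00000123080, chr1:50960745-50974634, plus strand), which encodes p18INK4c, was read in all 12 libraries. It was lower with ML355 and in the NVR-labelled libraries than in the DMSO groups. It was at 69.8, 72.7 and 72.0 CPM in DMSO-treated OV-L1-FGGY and 43.2, 36.3 and 45.0 CPM with ML355, a log2 fold change of -0.78 (SE 0.11, edgeR adjusted p = 1.41e-05). It was at 70.9, 68.6 and 60.4 CPM in OV-CTRL and 48.2, 49.7 and 49.6 CPM in the NVR-labelled libraries, a log2 fold change of -0.44 (SE 0.11, edgeR adjusted p = 0.00367). The groups overlapped in neither comparison, but the second call was lost when OV-CTRL replicate 1 or 2 or replicate 1 of the NVR-labelled libraries was left out (edgeR adjusted p = 0.0155 to 0.0211). Between the DMSO groups the log2 fold change was 0.10 (SE 0.11, edgeR adjusted p = 0.395), and their libraries overlapped. For the NVR-labelled libraries against DMSO-treated OV-L1-FGGY it was -0.54 (SE 0.11, edgeR adjusted p = 0.000221).

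Of the CIP/KIP inhibitors, *CDKN1A* was higher with ML355 and in the NVR-labelled libraries than in the DMSO groups. *CDKN1C* differed most between the DMSO groups, and *CDKN1B* lay between 50.8 and 115 CPM in every library. *CDKN1A* (ENSG00000124762, chr6:36676460-36687337, plus strand) encodes p21. It was at 166, 154 and 165 CPM in DMSO-treated OV-L1-FGGY and 467, 522 and 523 CPM with ML355. It was at 200, 179 and 174 CPM in OV-CTRL and 516, 484 and 542 CPM in the NVR-labelled libraries. The 6 libraries labelled with an inhibitor all lay above the 6 DMSO libraries, and the 2 groups labelled with an inhibitor overlapped each other. The log2 fold change was 1.64 (SE 0.11, edgeR adjusted p = 5.25e-09) with ML355, 1.48 (SE 0.11, edgeR adjusted p = 5.3e-08) for the NVR-labelled libraries against OV-CTRL and 1.67 (SE 0.11, edgeR adjusted p = 5.18e-10) against DMSO-treated OV-L1-FGGY. In DMSO-treated OV-L1-FGGY all 3 libraries were below those of OV-CTRL, yet the log2 fold change of -0.19 (SE 0.10) did not pass the threshold (edgeR adjusted p = 0.108).

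*CDKN1C* (ENSG00000129757, chr11:2883213-2885775, minus strand) encodes p57, the product of an imprinted gene. It had 2665, 2807 and 2889 counts in DMSO-treated OV-L1-FGGY and 4189, 3681 and 5549 with ML355, against 57, 52 and 26 in OV-CTRL and 71, 72 and 73 in the NVR-labelled libraries. As for *CDKN2A*, the OV-L1-FGGY libraries given DMSO or ML355 stood far above the other 6, which for *CDKN1C* were all above the floor. The log2 fold change was 6.36 (SE 0.25, edgeR adjusted p = 2.2e-12) for OV-L1-FGGY against DMSO-treated OV-CTRL and -5.46 (SE 0.24, edgeR adjusted p = 5.74e-12) for the NVR-labelled libraries against DMSO-treated OV-L1-FGGY. With ML355 it rose by 0.62 on the log2 scale (SE 0.19, edgeR adjusted p = 0.00964), from 149 ± 3.76 to 229 ± 54.7 CPM (SD, n = 3). That call lies at the threshold and was lost with the library size alone, with the higher count filter, with a replicate block and when any of 5 of the 6 libraries was left out (edgeR adjusted p = 0.0137 to 0.071 over these). In the NVR-labelled libraries against OV-CTRL the log2 fold change was 0.90 (SE 0.27, edgeR adjusted p = 0.0129), past the threshold in DESeq2 (adjusted p = 0.000991).

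*CDKN1B* (ENSG00000111276, chr12:12685498-12722369, plus strand) encodes p27, an inhibitor of cyclin E with CDK2. Its level was 85.7 ± 3.12 CPM in DMSO-treated OV-L1-FGGY, 101 ± 12.7 CPM with ML355, 59.6 ± 11.4 CPM in the NVR-labelled libraries and 81.3 ± 5.06 CPM in OV-CTRL (SD, n = 3). The NVR-labelled libraries, at 55.6, 72.5 and 50.8 CPM, lay below all the others. The log2 fold change against OV-CTRL was -0.45 (SE 0.13, edgeR adjusted p = 0.0123), which passed the threshold without replicate 2 of the NVR-labelled libraries (-0.61, edgeR adjusted p = 0.000569), in limma voom (adjusted p = 0.00961), with the library size alone (edgeR adjusted p = 0.00826) and with no filter on low counts (edgeR adjusted p = 0.00365). Against DMSO-treated OV-L1-FGGY it fell by 0.52 on the log2 scale (edgeR adjusted p = 0.00177), a call lost without replicate 1 of the NVR-labelled libraries (edgeR adjusted p = 0.0112) and with at least 10 counts in every library (-0.39, edgeR adjusted p = 0.0121). The change with ML355 was 0.24 (edgeR adjusted p = 0.139) and that between the DMSO groups 0.08 (edgeR adjusted p = 0.608).

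Among the drivers of G1, *CCND1* and *CDK6* were higher in DMSO-treated OV-L1-FGGY than in any other group. *CCND1* (ENSG00000110092, chr11:69641156-69654474, plus strand), which encodes cyclin D1, was at 225, 193 and 230 CPM in DMSO-treated OV-L1-FGGY and 112, 121 and 108 CPM with ML355. It was at 95.9, 120 and 124 CPM in OV-CTRL and 89.9, 99.4 and 82.4 CPM in the NVR-labelled libraries. The ML355 libraries thus overlapped those of OV-CTRL. The log2 fold change was -0.93 (SE 0.12, edgeR adjusted p = 8.34e-06) with ML355 and 0.93 (SE 0.12, edgeR adjusted p = 3.04e-06) for OV-L1-FGGY against DMSO-treated OV-CTRL. These comparisons share the libraries of DMSO-treated OV-L1-FGGY. For the NVR-labelled libraries it was -0.32 (edgeR adjusted p = 0.0408) against OV-CTRL, with overlapping groups, and -1.25 (edgeR adjusted p = 8.19e-08) against DMSO-treated OV-L1-FGGY.

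*CDK6* (ENSG00000105810, chr7:92604921-92836573, minus strand), a kinase partner of the D cyclins, was at 263, 221 and 261 CPM in DMSO-treated OV-L1-FGGY and 148, 163 and 137 CPM with ML355. It was at 43.5, 49.7 and 55.1 CPM in OV-CTRL and 29.1, 29.7 and 28.6 CPM in the NVR-labelled libraries. No group overlapped another, and *CDK6* stood in the order OV-L1-FGGY with DMSO, with ML355, OV-CTRL, NVR-labelled from the highest to the lowest. It fell by 0.73 on the log2 scale with ML355 (SE 0.11, edgeR adjusted p = 4.91e-05) and by 0.76 in the NVR-labelled libraries against OV-CTRL (SE 0.12, edgeR adjusted p = 9.79e-05). OV-L1-FGGY was higher than OV-CTRL in DMSO by 2.33 (SE 0.12, edgeR adjusted p = 4.19e-11). For the NVR-labelled libraries against DMSO-treated OV-L1-FGGY the log2 fold change was -3.09 (SE 0.12, edgeR adjusted p = 2.07e-12).

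*CCND2* (ENSG00000118971, chr12:4269771-4305353, plus strand), which encodes cyclin D2, was close to absent. It had 1, 2 and 1 counts in DMSO-treated OV-L1-FGGY, 10, 12 and 10 with ML355, 0, 0 and 1 in OV-CTRL and 1, 14 and 9 in the NVR-labelled libraries. The ratio of the summed counts after scaling was 7.67 (exact 95% interval for counting error, 2.72 to 29.8) with ML355 (edgeR adjusted p = 0.00554) and 27.8 (4.53 to 1140) for the NVR-labelled libraries against OV-CTRL (edgeR adjusted p = 0.00273). With ML355 the call was lost when any of the 6 libraries was left out (edgeR adjusted p = 0.0115 to 0.0278), and the second was lost without OV-CTRL replicate 1 or 2 or without replicate 2 of the NVR-labelled libraries (edgeR adjusted p = 0.0117 to 0.0173). For the NVR-labelled libraries against DMSO-treated OV-L1-FGGY the ratio was 5.18 (1.78 to 20.5). There the groups overlapped and the test was not passed (edgeR adjusted p = 0.0186). *CCND2* passed the filter on low counts only through libraries where it was high, so that its p-values are not independent of that filter. Another protein-coding gene model, ENSG00000285901, overlaps *CCND2* on the same strand.

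*RB1* (ENSG00000139687, chr13:48303744-48599436, plus strand), the substrate of these kinases, followed the order of *CDK6*. It was at 81.5, 73.4 and 74.2 CPM in DMSO-treated OV-L1-FGGY and 61.3, 58.9 and 54.8 CPM with ML355, 23.7, 32.0 and 35.8 CPM in OV-CTRL and 16.2, 20.2 and 10.4 CPM in the NVR-labelled libraries. The 4 groups did not overlap. OV-L1-FGGY was higher than OV-CTRL in DMSO by 1.32 on the log2 scale (SE 0.19, edgeR adjusted p = 7.11e-06). For the NVR-labelled libraries against DMSO-treated OV-L1-FGGY the log2 fold change was -2.28 (SE 0.19, edgeR adjusted p = 1.52e-08). *RB1* fell in the NVR-labelled libraries by 0.96 against OV-CTRL (SE 0.19, edgeR adjusted p = 0.000813), although with only these 2 groups in the fit the adjusted p was 0.0138. With ML355 the log2 fold change was -0.39 (SE 0.18), which did not pass the threshold (edgeR adjusted p = 0.0806) but did with only these 2 groups in the fit (-0.38, edgeR adjusted p = 0.00443). *LPAR6* and *RCBTB2* lie on the opposite strand within or across *RB1* and had at most 221 and 122 counts, and whether the counting used the strand is not stated.

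**Figure D3:**
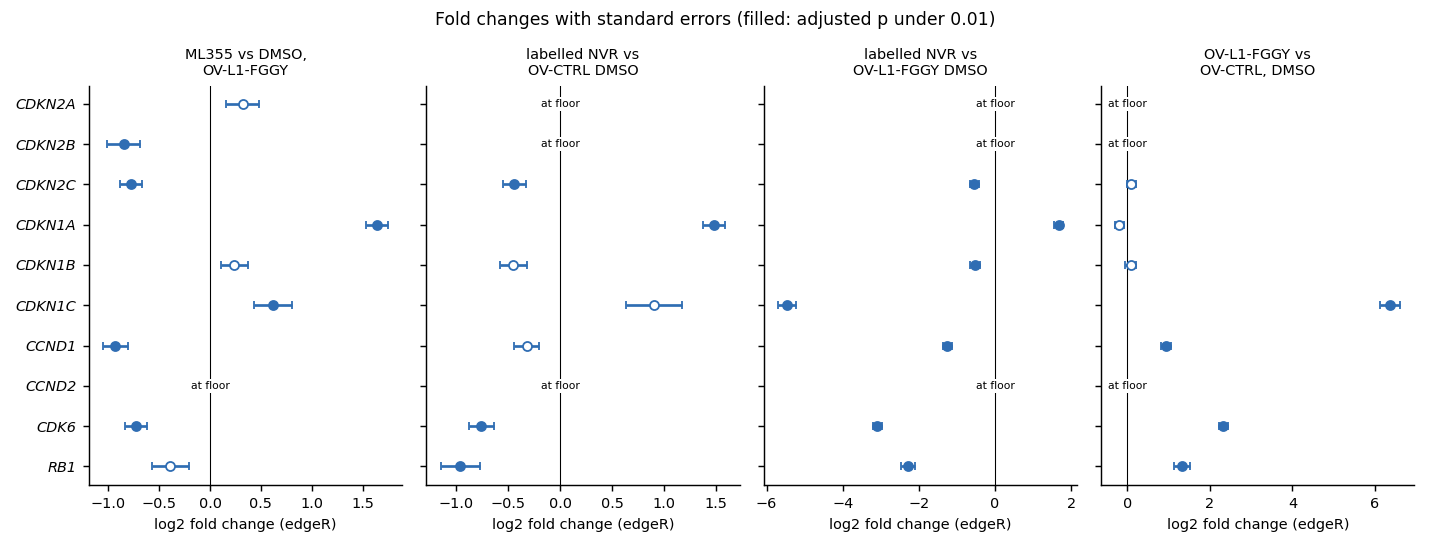
Log2 fold change (x axis, edgeR, bars of 1 SE) of each gene in the 4 comparisons, with filled points for an adjusted p under 0.01, and axes that differ between panels. Entries marked "at floor" have a group with at most 3 counts, or for *CCND2* 4 counts, over its libraries and no fitted fold change is shown. *CDKN1A* stands at 1.64 with ML355 and at 1.48 in the NVR-labelled libraries against OV-CTRL.

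Of the 10 genes, all of which were tested, 7 passed an adjusted p under 0.01 with ML355, *CDKN1A*, *CDKN1C* and *CCND2* higher and *CDKN2B*, *CDKN2C*, *CCND1* and *CDK6* lower, where 44.8% of all genes tested passed (21.3% higher and 23.5% lower). Groups did not overlap for 9 of the 10, against 62.6% of all genes. In the NVR-labelled libraries against OV-CTRL 5 passed, *CDKN1A* and *CCND2* higher and *CDKN2C*, *CDK6* and *RB1* lower, where 29.8% of all genes did (14.5% higher and 15.3% lower), and 7 did not overlap, against 52.9%. Of all genes called there, 48.8% were higher, or 36.3% with the library size alone as the scale. Against DMSO-treated OV-L1-FGGY, 9 passed in the NVR-labelled libraries, 1 higher and 8 lower, where 73.6% of all genes did (38.2% higher and 35.4% lower), and 9 did not overlap, against 82.5%. In OV-L1-FGGY against DMSO-treated OV-CTRL 6 passed, all higher (*CDKN2A*, *CDKN2B*, *CDKN1C*, *CCND1*, *CDK6* and *RB1*), where 68.7% of all genes did (32.5% higher and 36.2% lower), and 8 did not overlap, against 81.5%. All of these but the comparison of NVR-labelled with OV-CTRL libraries share the DMSO-treated OV-L1-FGGY libraries. *CDKN2A*, *CDKN2B* and *CCND2* passed the filter on low counts only through libraries where they were high. Their calls and their lack of overlap are thus not independent of that filter.

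Per kb of annotated exon, *CDKN2A* led the 10 in DMSO-treated OV-L1-FGGY and *CDKN1A* in the other 3 groups. In DMSO-treated OV-L1-FGGY the mean level was 69.3 CPM per kb for *CDKN2A*, 60.0 for *CDKN1C*, 53.9 for *CDKN1A* and 45.3 for *CCND1*. With ML355 *CDKN1A* led at 168 CPM per kb, followed by *CDKN1C* at 92.4 and *CDKN2A* at 86.5. In OV-CTRL *CDKN1A* led at 61.6 CPM per kb, with *CCND1* at 23.8 and *CDKN2C* at 22.1. In the NVR-labelled libraries *CDKN1A* stood at 172 CPM per kb, and every other of the 10 genes was at 19.0 or lower. *CDK6* was at 20.3, 12.2, 4.04 and 2.38 CPM per kb and *RB1* at 11.9, 9.07, 4.74 and 2.43 in DMSO-treated OV-L1-FGGY, ML355, OV-CTRL and the NVR-labelled libraries.

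**Figure D4:**
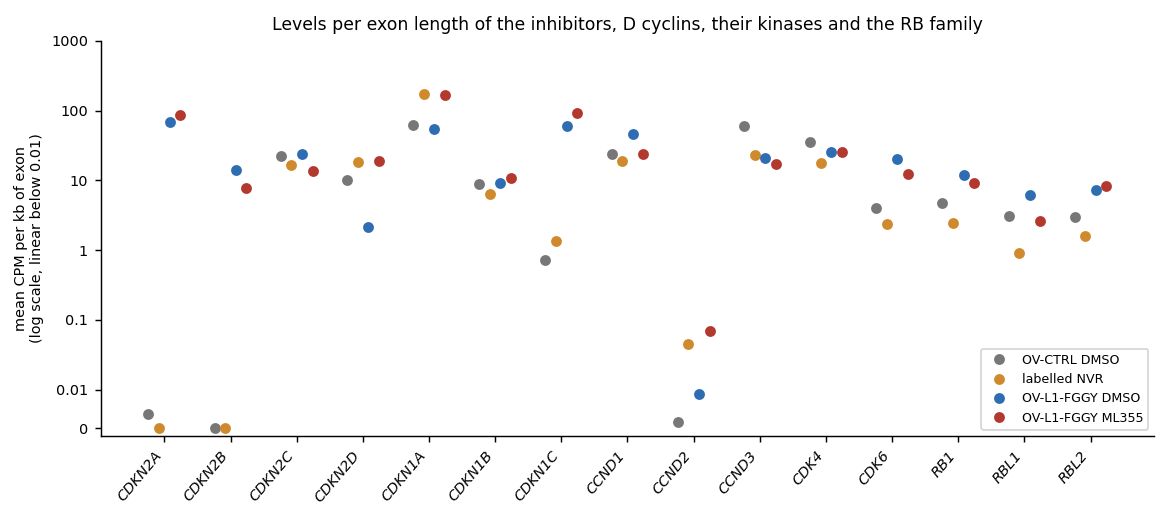
Mean level per kb of annotated exon (CPM per kb, log axis, linear below 0.01; 3 libraries per group) of the 10 genes and of *CDKN2D*, *CCND3*, *CDK4*, *RBL1* and *RBL2*. *CDKN1A* is at 168 and 172 CPM per kb in the inhibitor groups and at 53.9 and 61.6 in the DMSO groups.

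The partners of these genes were taken from lists chosen with results of these data known, and are described by counts. The list of 13 other G1/S cyclins and kinases also holds regulators of them, namely *CDKN2D*, *CDKN3*, *CDC25A*, *MNAT1* and *CDK5R1*. Of these 13 genes, 6 rose, *CDKN2D* included, and 1 fell with ML355 (median log2 fold change 0.13). In the NVR-labelled libraries against OV-CTRL 1 rose, namely *CDKN2D*, and 6 fell (median -0.6). The medians of all genes were 0.0 in both comparisons. Over all genes tested, 21.3% rose and 23.5% fell with ML355, and 14.5% rose and 15.3% fell in the NVR-labelled libraries against OV-CTRL. *CDKN2D*, which encodes p19INK4d, the remaining INK4 inhibitor, rose by 3.15 on the log2 scale with ML355 (SE 0.23, edgeR adjusted p = 1.36e-08) and by 0.83 in the NVR-labelled libraries (SE 0.19, edgeR adjusted p = 0.00288). *CDK7*, the catalytic part of the CDK-activating kinase, rose by 1.86 with ML355 (edgeR adjusted p = 1.45e-09). *CCNA2*, which encodes cyclin A2, rose by 1.29 with ML355 (edgeR adjusted p = 8.08e-07) and fell by 1.57 in the NVR-labelled libraries (edgeR adjusted p = 4.61e-07). There *CDC25A*, a phosphatase that activates CDK2, fell by 2.53 (edgeR adjusted p = 2.01e-08), *CDK2* by 1.48 (edgeR adjusted p = 1.39e-07) and *CCND3*, which encodes cyclin D3, by 1.4 (edgeR adjusted p = 7.61e-08). Between the cells in DMSO 4 were higher and 4 lower in OV-L1-FGGY, where 32.5% and 36.2% of all genes were, with *CDK2* higher by 2.06 and *CCND3* and *CDKN3*, a CDK phosphatase, lower by log2 fold changes of -1.52 and -1.65.

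Of 19 genes of the RB family, E2F and DREAM complex, 2 rose and 10 fell with ML355 (median -0.49), where 21.3% of all genes rose and 23.5% fell. In the NVR-labelled libraries against OV-CTRL 0 rose and 13 fell (median -1.02), where 14.5% and 15.3% of all genes did. *E2F3* fell by 1.41 (edgeR adjusted p = 5.02e-08), *TFDP1*, a dimer partner of E2F, by 1.03 (edgeR adjusted p = 6.49e-07) and *RBL1*, which encodes the RB relative p107, by 1.23 (edgeR adjusted p = 2.81e-06) with ML355. With the NVR label *E2F2* fell by 3.36 (edgeR adjusted p = 6.78e-09), *E2F1* by 2.42 (edgeR adjusted p = 1.63e-08) and *E2F7*, an E2F repressor, by 2.31 (edgeR adjusted p = 5.31e-08). Between the cells in DMSO 12 were higher and 4 lower in OV-L1-FGGY (median 0.86), where 32.5% and 36.2% of all genes were.

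Of 19 classical E2F target genes, 2 rose and 11 fell with ML355 (median -0.69), beside 21.3% and 23.5% of all genes, and all 19 fell in the NVR-labelled libraries against OV-CTRL (median -1.67), beside 15.3% of all genes. *RRM2*, a subunit of the enzyme that makes deoxynucleotides, fell by 1.56 with ML355 and by 2.0 in the NVR-labelled libraries. *POLA2*, a subunit of DNA polymerase alpha, fell by 1.32 and 1.98. *CDC6*, which loads the replicative helicase, fell by 0.69 and 2.3, *MCM3*, a subunit of that helicase, by 0.98 and 1.96, and *UHRF1*, a partner of maintenance DNA methylation, by 2.01 and 3.76. The edgeR adjusted p of these 5 genes was at most 9.31e-06 in each comparison. Between the cells in DMSO 7 of the 19 were higher and 2 lower (median 0.07), beside 32.5% and 36.2% of all genes.

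**Figure D5:**
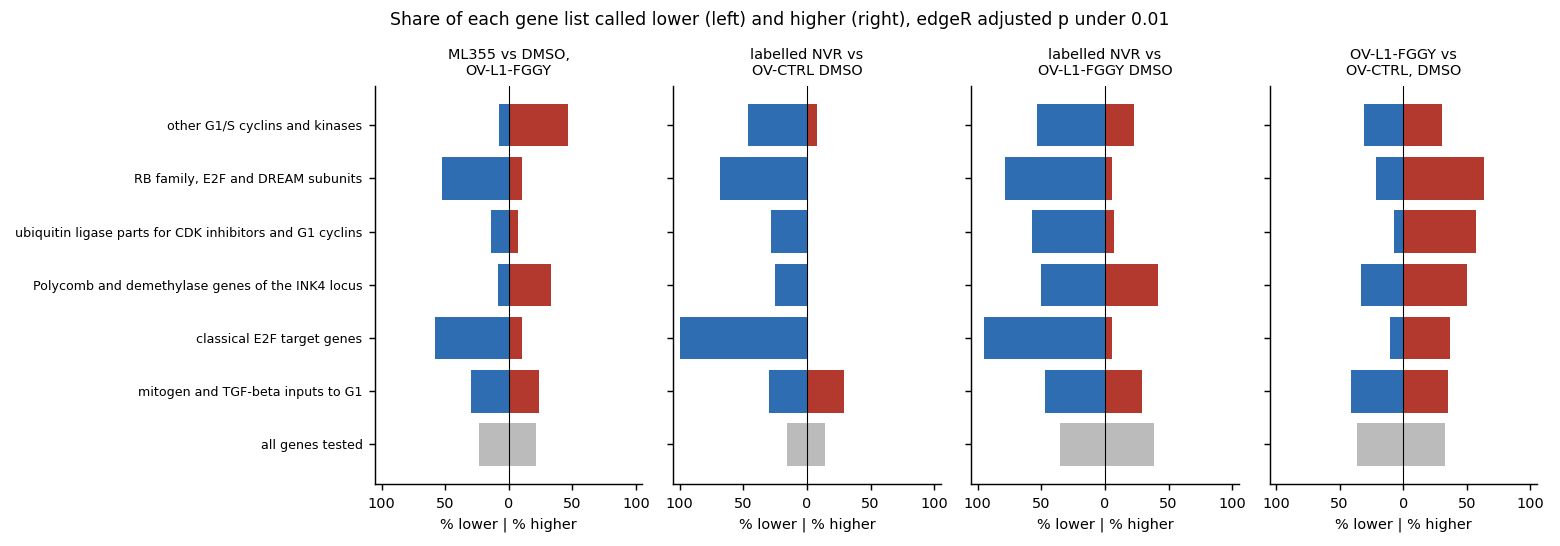
Share of each gene list called higher (bars to the right) and lower (bars to the left), in % of its genes tested, at an edgeR adjusted p under 0.01 in the 4 comparisons, with all 17849 genes tested in grey. All 19 classical E2F targets are lower in the NVR-labelled libraries against OV-CTRL, where 15.3% of all genes are.

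Among 12 Polycomb and demethylase genes known to act on the INK4 locus, 4 rose and 1 fell with ML355, or 41.7% called beside 44.8% of all genes. For the NVR-labelled libraries against OV-CTRL 0 rose and 3 fell, where 29.8% of all genes were called, so that both shares were near those of all genes. *KDM6B*, a demethylase of the Polycomb mark, rose by 1.94 with ML355 (edgeR adjusted p = 1.57e-08), and *EZH2*, its methyltransferase, fell by 1.17 in the NVR-labelled libraries (edgeR adjusted p = 4.5e-07). In OV-L1-FGGY against DMSO-treated OV-CTRL 6 were higher and 4 lower, or 83.3% called beside 68.7% of all genes. For the NVR-labelled libraries against DMSO-treated OV-L1-FGGY 91.7% were called, beside 73.6%. Between the cells in DMSO the log2 fold change was -1.95 for *KDM6B* (edgeR adjusted p = 2.89e-09) and 0.8 for *EZH2* (edgeR adjusted p = 2.62e-06). *PCGF2*, with the smallest adjusted p of the list there, was at 17.3 CPM in OV-L1-FGGY and 107 CPM in OV-CTRL.

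Of 14 ubiquitin ligase parts that act on CDK inhibitors and G1 cyclins, 1 rose and 2 fell with ML355, or 21.4% called, below the 44.8% of all genes. Against OV-CTRL, 0 rose and 4 fell in the NVR-labelled libraries, or 28.6% beside 29.8%. *SKP2*, which targets p27 for degradation, was higher by 3.79 on the log2 scale in OV-L1-FGGY than in OV-CTRL in DMSO (SE 0.11, edgeR adjusted p = 7.71e-14), where the RNA of *CDKN1B* had a log2 fold change of 0.08. The p27 protein is not in these data. *CKS1B*, the cofactor of *SKP2*, rose by 1.09 with ML355 (edgeR adjusted p = 1.11e-05). *DTL*, which targets p21, fell by 0.41 with ML355 (edgeR adjusted p = 0.00429) and by 2.6 in the NVR-labelled libraries (edgeR adjusted p = 9.99e-10), where *DDB1*, of the same ligase, fell by 0.42 (edgeR adjusted p = 0.00346). The calls of *DTL* with ML355 and of *DDB1* were each lost without some of the libraries. Of 17 mitogen and TGF-beta inputs, 4 rose and 5 fell with ML355 (52.9% called, beside 44.8% of all genes) and 5 rose and 5 fell in the NVR-labelled libraries (58.8%, beside 29.8%). With ML355 *KLF4*, known to act on *CDKN1A*, rose by 2.15 (edgeR adjusted p = 3.35e-08) and *TGFBR1*, a receptor of TGF-beta, fell by 1.59 (edgeR adjusted p = 1.02e-07). Among the NVR-labelled libraries *ID1* rose by 1.93 (edgeR adjusted p = 3.51e-07) and *KLF6* fell by 1.1 (edgeR adjusted p = 1.31e-05), whereas *KLF6* rose by 1.54 with ML355 (edgeR adjusted p = 1.4e-07).

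Near *CCND1*, 16 neighbours within 1 Mb had at least 10 counts in some library, and of 14 tested 3 were higher and 6 lower in OV-L1-FGGY than in DMSO-treated OV-CTRL, with a median log2 fold change of -0.46. Over all genes tested 32.5% were higher and 36.2% lower there, and the counts of neighbours are to be read against these shares. *LTO1*, on the opposite strand with 1399 bases shared with *CCND1*, had 331, 407 and 383 counts in DMSO-treated OV-L1-FGGY, 100, 176 and 137 with ML355, 695, 773 and 746 in OV-CTRL and 546, 770 and 517 in the NVR-labelled libraries. It was thus lower in OV-L1-FGGY where *CCND1* was higher, with a log2 fold change of -0.56 (SE 0.15, edgeR adjusted p = 0.00353), a call lost without OV-L1-FGGY replicate 1 or 3 or OV-CTRL replicate 2 (edgeR adjusted p = 0.0163 to 0.0179) and with the library size alone as the scale (edgeR adjusted p = 0.0243). With ML355 it fell by 1.5 (SE 0.17, edgeR adjusted p = 1.51e-06). *FGF19*, which encodes a growth factor, never passed 48 counts, and *LINC02747* never passed 18. For *RB1*, 8 of 10 neighbours tested were higher and 1 lower in OV-L1-FGGY than in OV-CTRL (median log2 fold change 1.3), and for *CDK6*, 10 of 13 were higher and 1 lower (median 1.19). For *CDKN1C*, whose own log2 fold change was 6.36, 5 of 21 were higher and 8 lower (median -0.33). Around genes that did not pass there, 6 of 7 were higher and 0 lower for *CDKN2C* (median 1.51) and 14 of 21 higher and 5 lower for *CDKN1A* (median 0.84). For *CDKN1B* 7 of 16 were higher and 4 lower (median 0.57), and for *CCND2* 1 of 8 was higher and 3 lower (median -1.21).

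Over the 12 libraries, the pattern of log2 CPM most like that of *CDKN2A* among protein-coding genes was that of *MT1E* and *FOXF1* (Pearson's r = 0.999 for each) and *GSTM1* (0.998), and *CDKN2B* was at 0.995. The genes nearest in pattern to *CDKN2B* were *SSTR1* (1.0), *DMD* and *MAGEB2* (0.999 for each). For *CDKN1C* they were *IL20RB* (0.997), *FOXC2* and *ISG15* (0.996 for each). The points fall into the separate sets of libraries described above and share those libraries for every gene. For *CDKN1A*, which was high in both inhibitor groups, they were *SPRYD3* (0.982), *IRF7* (0.979) and *METTL25B* (0.974), while *CDKN2C* was at -0.919. The nearest to *CDK6* were *USP24* and *LARP4* (0.997 for each) and *QSER1* (0.996), to *CCND1* *ZMYM4* (0.995), *ZNF292* (0.992) and *APC* (0.988), and to *RB1* *VPS35*, *NDUFS1* and *MTREX* (0.994 for each). For *CDKN2C* they were *ANK1* (0.973), *CCN5* (0.968) and *ABCF2* (0.964), and for *CDKN1B* *NOD1* (0.969), *INCENP* (0.966) and *MAP3K21* (0.962).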

How the data were processed

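RNA of 12 NCI-H520 libraries was analysed in 4 groups of 3 by their labels, with the DMSO control taken as OV-CTRL. The deposited values are whole-number counts per gene without normalization, which the authors made with STAR 2.5.3a on hg38 and HTSeq 0.11.2, per the submitters' processing notes. Annotation release, strand setting and reads with several positions are not stated, and the labels name a TruSeq kit where the methods name NEB. Of 58302 identifiers, 57532 were matched to GENCODE 44, and of 36072 genes with a count filterByExpr kept 17849. edgeR 4.0.16 in R 4.3.3 fitted the means of the 4 groups by robust quasi-likelihood with TMM scaling, at an adjusted p under 0.01, where the paper used limma voom. The code was tested on simulated data. A floor of 3 counts over a group served for folds where that group had no count, and intervals and floors cover counting error only. A low group with some counts was given the ratio of summed counts instead.

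The genes and lists were chosen with earlier results of these data known. Beside the 10 genes, those named are up to 3 per list and comparison with the smallest adjusted p, neighbours within 300 kb of *CDKN2A* and *CCND1*, and the 3 protein-coding genes with the highest r per gene. The alternatives used DESeq2 1.42.0, limma 3.58.1 with voom, other scalings and filters, only the groups compared, a replicate block, a library fewer or an adjusted p under 0.05. A fit without the NVR-labelled libraries was chosen after seeing the data. Promoter sequences are RefSeq's. Some regulators and target genes are not reported here.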

Additional observations from a re-analysis of the deposited data

How the results depend on the processing

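Of the log2 fold changes of the 10 genes under the alternatives, 521 kept their direction and side of the threshold, 16 newly passed it, 23 no longer passed it and 1 turned: *CDKN1B* in OV-L1-FGGY against OV-CTRL was -0.02 with at least 10 counts in every library against 0.08. With that filter 11918 genes were tested, *CDKN2A*, *CDKN2B* and *CCND2* dropped out, and 4 of the 10 genes passed with ML355 against 7, fewer by the filter's own construction for *CDKN2B* and *CCND2*. In the NVR-labelled libraries against OV-CTRL, 5 of the 10 passed and 8 at an adjusted p under 0.05. With only these 2 groups in the fit 7 of the 10 were tested and 3 passed: *CCND2* dropped out by the filter, and *RB1* lost its call (adjusted p = 0.0138), whose cause was not tested. Leaving out each library in turn gave 3 to 6 there (3 without OV-CTRL replicate 2), and 3506 to 6106 genes in all against 5316, the lowest again without OV-CTRL replicate 2. It gave 5 to 7 of the 10 with ML355, 9 in each case for the NVR-labelled libraries against DMSO-treated OV-L1-FGGY, and 6 in each case for OV-L1-FGGY against OV-CTRL. Deviations of same-numbered libraries from their group means correlated at -0.354 to 0.17. Differently numbered libraries were not set beside them, so that whether the replicate numbers pair the samples cannot be told from these values. A replicate block gave 7583 genes with ML355, 4754 in the NVR-labelled libraries against OV-CTRL, 12874 against OV-L1-FGGY and 11979 in OV-L1-FGGY against OV-CTRL, and of the 10 genes ended only the call of *CDKN1C* with ML355 (0.61, adjusted p = 0.0174). With the library size alone as the scale, the median log2 fold change of all genes moved to -0.127 with ML355, and to -0.153 and -0.161 in the NVR-labelled libraries against OV-CTRL and against OV-L1-FGGY. Without the NVR-labelled libraries in the fit, no call among the 10 genes was lost. The alternatives were also read for *FGGY* and for up to 3 genes per list with the smallest adjusted p in the same comparison. They were read for *MTAP* and *LTO1* with ML355, and for these, *KLHL9* and *DMRTA1* in OV-L1-FGGY against OV-CTRL. Among these, values kept their call in 1249 cases, gained it in 4 and lost it in 19, all in the same direction. The lost ones were those of *DTL* and *MTAP* with ML355, *DDB1* in the NVR-labelled libraries, and *LTO1* in OV-L1-FGGY against OV-CTRL. Other values named, such as those of *CDKN2B-AS1* and of *CDKN2D* in the NVR-labelled libraries, were not read under the alternatives. Depth limits *CCND2*, at 14 counts or fewer, and any fold of *CDKN2A* and *CDKN2B* below 3 counts.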
